A study of Mus musculus with 12 samples.

Results

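The genes described here are 44 protein-coding genes that act in the G2 and M phases of the cell cycle. They were taken as a list of gene symbols, chosen with earlier results of these data known. All 44 were found among the 55416 genes of the deposited table. Each library came from polyadenylated RNA of cultured neonatal mouse cardiomyocytes, the contracting cells of the newborn heart. The 4 groups of 3 libraries each were compared. The PE knockdown group received phenylephrine (PE, a drug that activates alpha1-adrenergic receptors and causes hypertrophy) for 24 hours and a GapmeR against lincRNA-p21. The PE control group received PE and a negative-control GapmeR. The PBS knockdown group received phosphate-buffered saline and the lincRNA-p21 GapmeR, and the PBS control group received saline and the negative-control GapmeR. A GapmeR is an antisense oligonucleotide whose target RNA is cut by RNase H, so every group carried an oligonucleotide. The labels give neither the number of animals or cultures nor the length of GapmeR exposure. The p-values below therefore measure only the spread between these libraries, which may be technical.

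Cells enter mitosis when cyclin A and cyclin B activate the kinase CDK1. Polo-like and Aurora kinases then build the spindle, kinetochores attach chromosomes to it, and the anaphase-promoting complex starts chromosome separation and exit from mitosis. Most genes of this programme are transcribed together, late in the cell cycle, by the MuvB core with B-MYB and FOXM1. In cells that leave the cycle, the DREAM complex (MuvB with p130 or p107 and E2F4) represses them through a promoter element called the CHR. p21, the product of Cdkn1a, favours this repression, and lincRNA-p21 is transcribed next to Cdkn1a. Mouse cardiomyocytes withdraw from the cell cycle shortly after birth, and some pass through mitosis without completing cytokinesis.

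The CHR and the CCAAT box, which binds the factor NF-Y, are the promoter elements best known for these genes, so RefSeq promoters (GRCm38.p6) were searched for them. The window ran from 250 bases before the start site to 50 bases after it. The letters searched were TTTGAA and TTCGAA for the CHR and CCAAT for the CCAAT box, on both strands. A window was found for 36 members and for 27025 genes in all, and only the first window listed for each gene was counted. The windows of 26 members (72.2%) held a CHR, against 19.4% of all windows. A CCAAT box stood in 66.7% of the members' windows, against 37.9% of all windows, and at least 2 boxes in 47.2% of the members' windows, against 12.2% of all. Both elements were present in 58.3% of the members' windows, against 7.70% of all. Of 29 members that were lower with the knockdown in PE or in PBS, 21 held a CHR, and of 7 that were called in neither, 5 did. A match of letters is a description and not a bound site. Windows are printed for the 4 members with the smallest adjusted p in any comparison among those with a CHR, and for 2 called members without one. They show members with both elements, with the CHR alone and with neither. Capitals mark the CHR letters and the CCAAT letters on either strand.
Ccnb2 (chr9:70421505-70421804, minus strand): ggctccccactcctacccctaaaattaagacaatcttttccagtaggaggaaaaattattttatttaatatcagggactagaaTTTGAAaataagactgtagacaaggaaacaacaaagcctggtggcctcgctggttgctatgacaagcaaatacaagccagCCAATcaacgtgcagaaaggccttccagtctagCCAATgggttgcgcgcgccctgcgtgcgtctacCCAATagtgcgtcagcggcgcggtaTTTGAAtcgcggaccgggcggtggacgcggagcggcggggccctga
Anln (chr9:22389157-22389456, minus strand): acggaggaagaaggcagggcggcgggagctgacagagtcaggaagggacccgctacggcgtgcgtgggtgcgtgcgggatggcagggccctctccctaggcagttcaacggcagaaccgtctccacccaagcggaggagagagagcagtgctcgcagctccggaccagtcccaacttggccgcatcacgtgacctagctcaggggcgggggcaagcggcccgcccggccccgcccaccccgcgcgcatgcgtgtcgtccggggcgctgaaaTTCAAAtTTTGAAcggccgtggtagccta
Top2a (chr11:99024140-99024439, minus strand): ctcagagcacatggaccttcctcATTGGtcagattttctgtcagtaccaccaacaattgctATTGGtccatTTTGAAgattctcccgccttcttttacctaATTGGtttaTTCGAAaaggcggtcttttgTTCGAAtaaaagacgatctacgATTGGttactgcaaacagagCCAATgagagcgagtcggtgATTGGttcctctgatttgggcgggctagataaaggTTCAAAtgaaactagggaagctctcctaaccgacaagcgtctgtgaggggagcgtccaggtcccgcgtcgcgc
Mki67 (chr7:135716330-135716629, minus strand): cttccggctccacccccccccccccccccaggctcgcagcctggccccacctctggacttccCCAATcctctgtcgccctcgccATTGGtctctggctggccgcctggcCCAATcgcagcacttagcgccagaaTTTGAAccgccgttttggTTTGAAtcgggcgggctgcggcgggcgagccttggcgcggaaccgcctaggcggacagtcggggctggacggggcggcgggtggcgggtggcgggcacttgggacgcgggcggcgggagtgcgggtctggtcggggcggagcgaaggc
Cit (chr5:115845406-115845705, plus strand): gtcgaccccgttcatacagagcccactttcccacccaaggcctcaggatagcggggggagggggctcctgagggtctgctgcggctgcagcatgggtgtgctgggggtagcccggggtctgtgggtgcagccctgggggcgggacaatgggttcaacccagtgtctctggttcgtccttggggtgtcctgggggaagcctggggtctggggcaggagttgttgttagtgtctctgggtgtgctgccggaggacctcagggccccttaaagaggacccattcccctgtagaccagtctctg
Melk (chr4:44300667-44300966, plus strand): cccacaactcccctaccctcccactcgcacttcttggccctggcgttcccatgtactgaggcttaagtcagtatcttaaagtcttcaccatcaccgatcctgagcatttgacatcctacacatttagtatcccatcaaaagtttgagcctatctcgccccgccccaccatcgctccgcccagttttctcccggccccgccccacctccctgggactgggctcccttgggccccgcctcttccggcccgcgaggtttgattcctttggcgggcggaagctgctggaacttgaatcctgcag
The Ccnb2 window had CCAAT boxes beginning at positions -87, -54 and -21 from the start site and CHR matches at positions -167 and 5. Top2a had 6 CCAAT boxes and 4 CHR matches. Anln held a pair of CHR matches just after the start site and no CCAAT box. The windows counted for Cit and Melk held neither, and other start sites of these genes were not examined.

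Values are normalised read counts, scaled by a size factor for each library. Every member was measured in every library, with 42 to 4297 reads per member and library. Mean values over the 12 libraries ranged from 63.8 for Cdc25c, the phosphatase that activates CDK1, to 2978 for Mki67, the chromosome coat protein Ki-67. Per kilobase of exon, the lowest level was 13.0 for Cdc25c and the highest was 345 for Ube2c, the ubiquitin-conjugating enzyme of the anaphase-promoting complex. The 44 genes lie on 16 chromosomes, 8 of them on chromosome 2. All 44 passed the filter of a mean value of at least 1 and entered the test, which was limma on log2(value + 1) over 21799 genes with Benjamini-Hochberg adjustment at 0.05. A gene is called where its adjusted p is under 0.05. Fold changes are on that log2 scale, which slightly understates changes of low genes, and their error is limma's standard error.

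Libraries held 21325485 to 22139681 reads in genes, of which 4.33% to 10.7% were mitochondrial. The target, Trp53cor1 (lincRNA-p21), stood at 8.56, 9.97 and 8.93 in PE knockdown libraries, against 56.0, 34.0 and 34.7 in PE control libraries. In PBS knockdown libraries it stood at 12.7, 22.6 and 10.1, against 59.8, 70.6 and 63.2 in PBS control libraries. It fell in both conditions (limma, log2 change -2.03 ± 0.30, adjusted p = 9.2e-05 in PE and -2.10 ± 0.30, adjusted p = 2.0e-04 in PBS). All 10 cardiomyocyte markers were present, with summed values of 539562 to 1183050. The 10 fibroblast markers were present too, with sums of 43598 to 90063. Over all genes, 3 libraries stood apart from their groups, namely PE knockdown 1, PBS knockdown 2 and PBS control 2, and counts without them stand beside the results.

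The G2 and M phase genes were lower with the lincRNA-p21 GapmeR in both conditions. Summed over the 44 genes, the normalised read count was 21223, 19164 and 19122 in PE knockdown libraries, against 28778, 24266 and 28138 in PE control libraries. In PBS knockdown libraries it was 21259, 17973 and 20789, against 27032, 30708 and 30583 in PBS control libraries. Every knockdown library lay below every control library of either condition. The mean sum was 26.7% lower in PE and 32.0% lower in PBS, and 22.3% and 28.7% lower as a share of the reads in genes. In bulk RNA, fewer cells in G2 or M phase and less of each transcript per cell cannot be told apart. The highest of the 12 values of a gene lay in a control library for all 44 genes, and the lowest lay in a knockdown library for all 44. Of the lowest values, 20 fell in PBS knockdown 2, and of the highest, 19 fell in PBS control 2, both among the 3 libraries that stood apart.

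**Figure D1:**
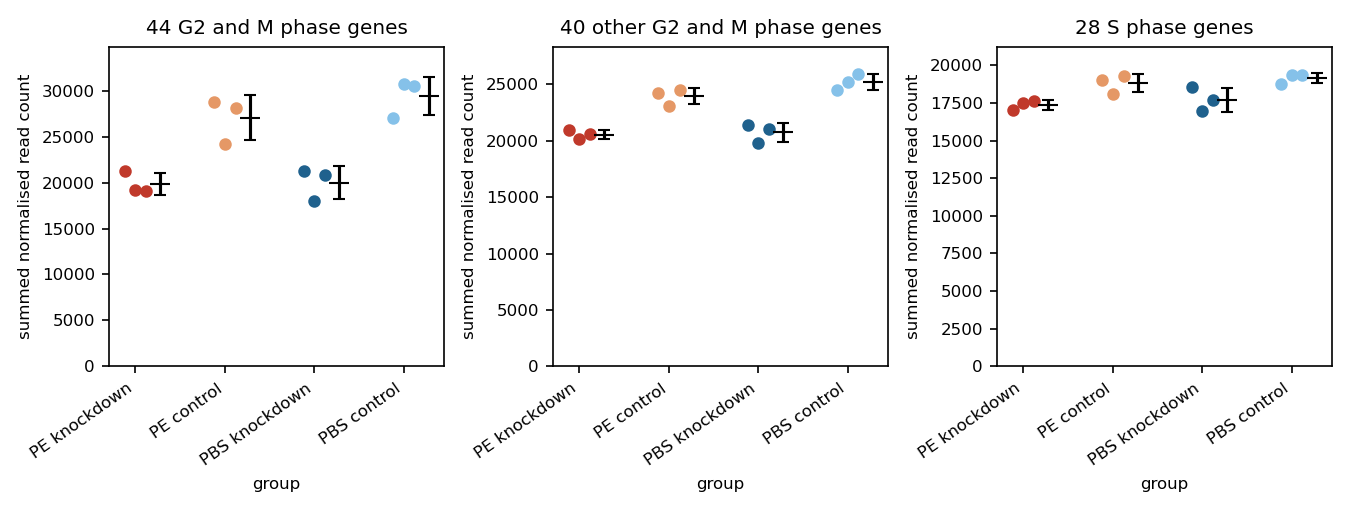
Summed normalised read count per library (vertical axis, from 0) of the 44 G2 and M phase genes, 40 other G2 and M phase genes and 28 S phase genes in the 4 groups (horizontal axis). Points are libraries, and black bars give the mean ± SD of 3 libraries; the 44 genes lay between 17973 and 21259 in knockdown libraries and between 24266 and 30708 in control libraries, while the S phase sums were 7.69% lower in PE and 7.62% lower in PBS with the knockdown.

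**Figure D2:**
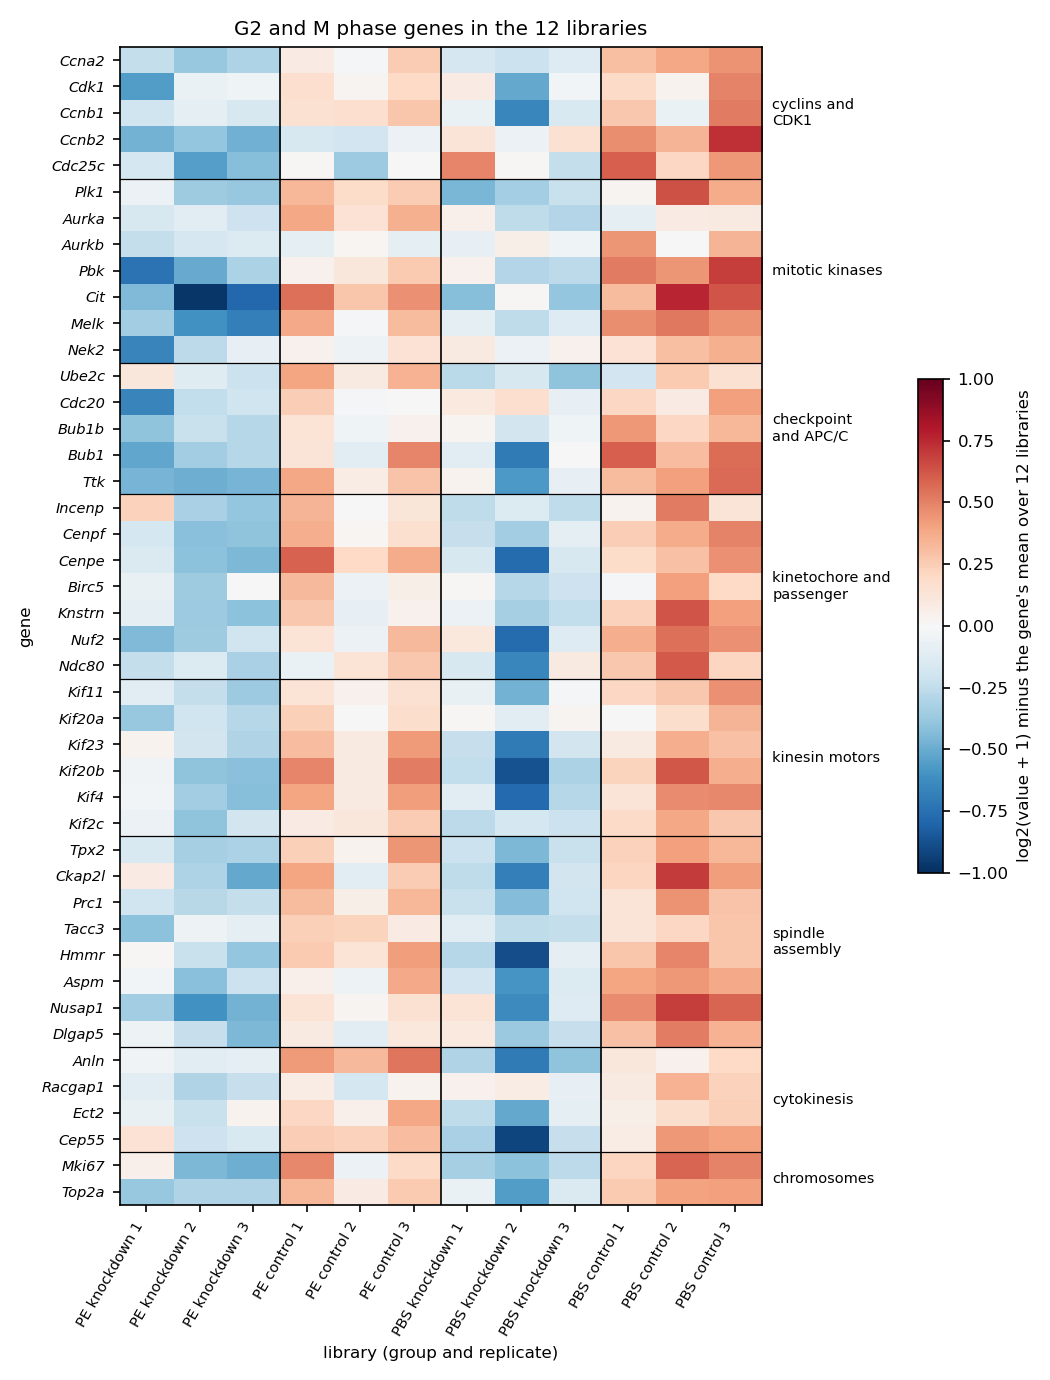
Log2(value + 1) of each of the 44 genes (rows, ordered by role) in each library (columns), minus the gene's mean over the 12 libraries; red is above and blue below that mean. The knockdown libraries are mostly blue in PE and in PBS, PBS knockdown 2 being the bluest, and the control libraries are mostly red.

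In PE, the knockdown lowered 22 of the 44 genes and raised none (limma, adjusted p under 0.05). Over all 21799 genes tested, 7.14% were called lower and 4.57% higher. The share of members called lower lay well above this background. The members were chosen with earlier results of these data known, so such an excess may be partly built into the choice. It is a description, and the part of the choice in it was not tested. All 44 log2 changes were below 0, with a median of -0.42, against 0.01 for all genes tested. The libraries of 35 members did not overlap between PE knockdown and PE control, all of them lower with the knockdown, against 16.1% of all genes tested. The called count was 37 without the 3 distant libraries, 12 without PE knockdown 3, and 10 without either PE control 1 or PE control 3. The number of all 21799 genes called lower moved too, from 1556 to 2644, 1129, 1123 and 1134 in these fits, in that order. The call held in every one of 21 alternatives for 8 genes, namely Anln, Cenpe, Cit, Melk, Pbk, Top2a, Tpx2 and Ttk.

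In PBS, the knockdown lowered 31 of the 44 genes and raised none. The background here was 3.21% of all genes called lower and 1.36% higher, and the limit set by the choice of members holds here too. Again all 44 changes were below 0, with a median of -0.59, against 0.001 for all genes tested. The libraries of 36 members did not overlap, all lower in PBS knockdown than in PBS control, against 11.9% of all genes. The called count was 31 without the 3 distant libraries, 17 without PBS control 3, and 13 when only the PBS libraries were fitted. The number of all 21799 genes called lower moved too, from 700 to 1132, 386 and 334 in these fits, in that order. The call held in every alternative for 13 genes: Anln, Aspm, Ccna2, Cenpf, Cit, Ckap2l, Kif20b, Melk, Mki67, Pbk, Prc1, Top2a and Tpx2.

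**Figure D3:**
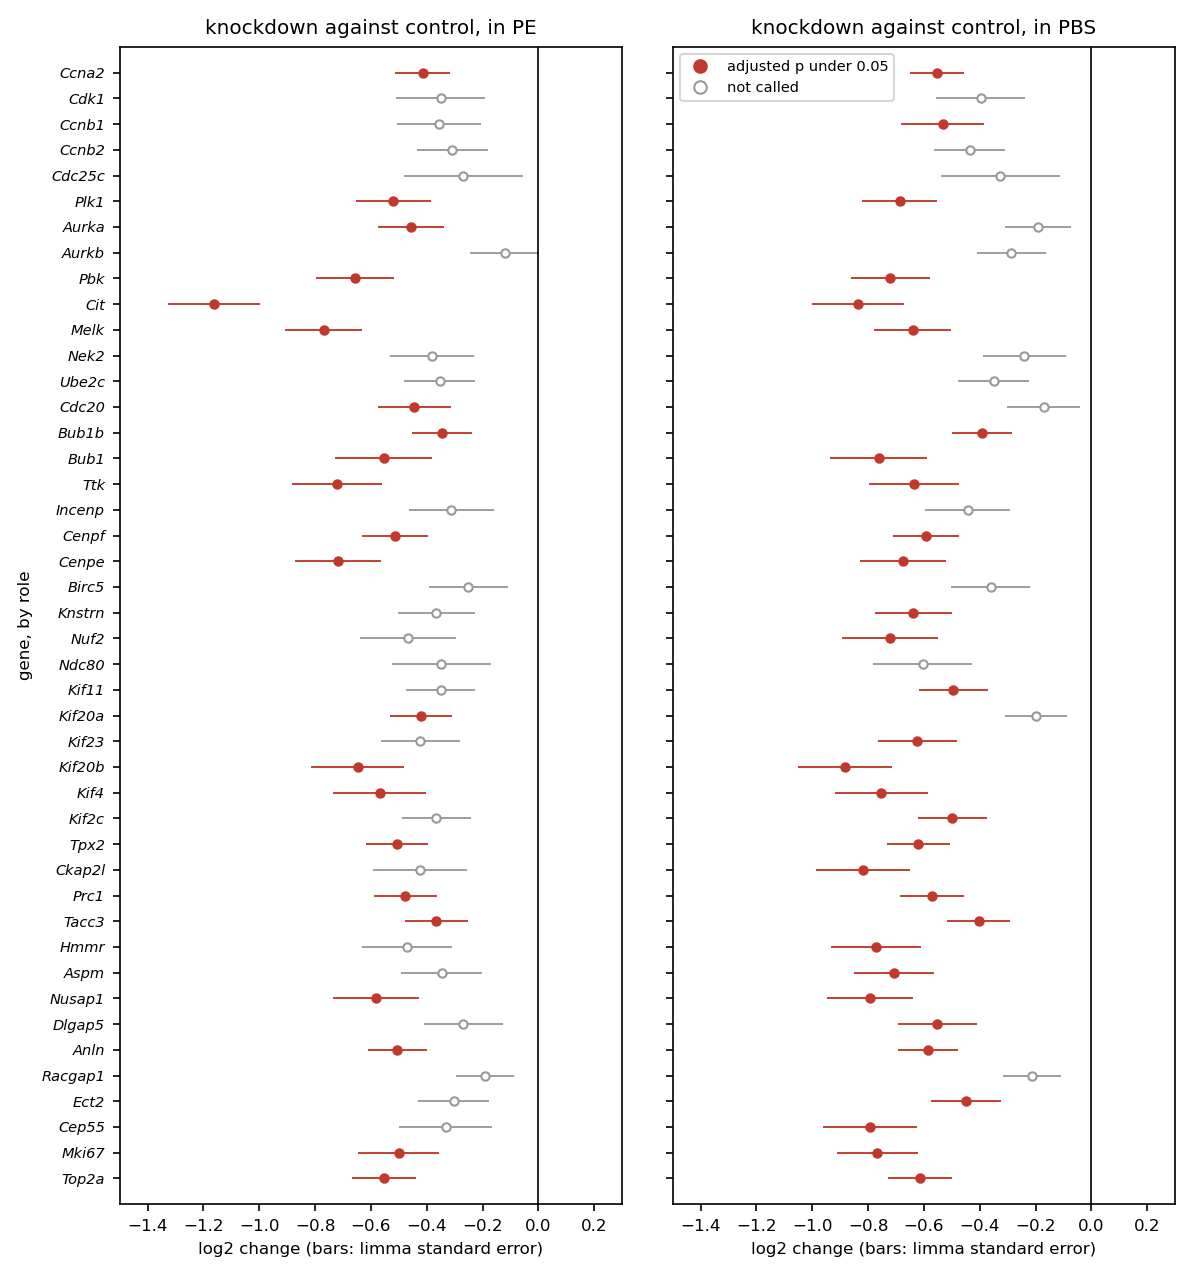
Log2 change with limma's standard error (horizontal axis) of each of the 44 genes (vertical axis, by role) with the lincRNA-p21 GapmeR against the control GapmeR in PE (left) and in PBS (right). Filled red points are called at an adjusted p under 0.05 (22 in PE and 31 in PBS) and open grey points are not; every point lies left of 0.

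Both comparisons called 19 genes lower: Ccna2, Plk1, Melk, Pbk, Cit, Ttk, Bub1, Bub1b, Cenpe, Cenpf, Kif20b, Kif4, Tpx2, Nusap1, Prc1, Tacc3, Anln, Mki67 and Top2a. These are 86.4% of the genes called in PE and 61.3% of those called in PBS. The comparisons share no library, but each gene's error came from the same fit over all 12 libraries. A gene with a small error was therefore more readily called in both, so the shared calls do not come from independent tests. No such overlap is given for all genes tested. Aurka, Cdc20 and Kif20a were called in PE and not in PBS, and 12 genes in PBS and not in PE. Another 10 were called in neither. Whether the effect differed between PE and PBS was tested by the interaction of PE and GapmeR, which called none of the 44 genes (background 0.055% of all genes). None had an unadjusted p under 0.05 in the interaction, and edgeR and DESeq2 also called none. The smallest unadjusted p was 0.0669, for Cep55 (limma, 0.46 ± 0.24, adjusted p = 0.545). Interaction errors of 0.138 to 0.302 on the log2 scale left moderate differences undetectable with 3 libraries per group.

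Among the cyclins and their kinase, Ccna2 (cyclin A2, GRCm38 chromosome 3, 36564865 to 36572150, minus strand) fell in both conditions. It stood at 714, 648 and 680 in PE knockdown libraries, against 892, 831 and 1005 in PE control libraries. In PBS it stood at 751, 726 and 770 in knockdown libraries, against 1041, 1105 and 1152 in control libraries. The groups did not overlap in either condition. The log2 changes were -0.41 ± 0.10 in PE (limma, adjusted p = 0.0078) and -0.55 ± 0.10 in PBS (adjusted p = 0.0019). Ccna2 overlaps the gene Exosc9 on the other strand (mean value 583, against 860 for Ccna2). Whether counting used strand is not known, so reads of the pair may not have been told apart. Ccnb1, one of the B cyclins that bind CDK1, fell in PBS by 0.53 ± 0.15 on the log2 scale and had a value of -0.36 ± 0.15 in PE, where it was not called. Its call in PBS was lost in 13 of 21 alternatives. Ccnb2, the other B cyclin, Cdk1 and Cdc25c were called in neither condition. For Cdk1 itself the log2 values were -0.35 ± 0.16 in PE and -0.40 ± 0.16 in PBS.

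Of the 7 mitotic kinases, 5 fell in PE and 4 in PBS. Cit, citron kinase of the midbody (GRCm38 chromosome 5, 115845278 to 116008947, plus strand), had the largest change of the 44 genes in PE. Its normalised read count was 157, 109 and 124 in PE knockdown libraries, against 315, 260 and 294 in PE control libraries. In PBS it was 160, 216 and 163 in knockdown libraries, against 268, 364 and 331 in control libraries. No knockdown library reached a control library. The fall was 2.24-fold in PE (limma, log2 change -1.16 ± 0.16, adjusted p = 6.2e-05) and -0.84 ± 0.16 on the log2 scale in PBS (adjusted p = 0.0045).

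Plk1, the polo-like kinase that drives mitotic entry and spindle formation, stood at 640, 520 and 511 in PE knockdown libraries, against 837, 757 and 795 in PE control libraries. In PBS its values were 485, 525 and 569 with the knockdown, against 678, 1035 and 863 in control. Again the groups lay apart, although the PBS control libraries differed widely among themselves. Plk1 fell by 0.52 ± 0.13 in PE (limma, adjusted p = 0.014) and by 0.69 ± 0.13 in PBS (adjusted p = 0.0045), on the log2 scale. Melk and Pbk, kinases that are high in dividing cells, fell in both conditions, Melk by 0.77 ± 0.14 in PE and 0.64 ± 0.14 in PBS. Aurka, the Aurora kinase of the spindle poles, fell in PE by 0.46 ± 0.12 and had a value of -0.19 ± 0.12 in PBS, where its libraries overlapped and it was not called. Aurkb, the Aurora kinase of the chromosomal passenger complex, and Nek2, which separates centrosomes, were called in neither condition.

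Among the genes of the spindle checkpoint and the anaphase-promoting complex, 4 of 5 fell in PE and 3 in PBS. The checkpoint kinases Ttk and Bub1 and the checkpoint protein gene Bub1b fell in both. The Bub1b call was lost in 12 of 21 alternatives in each condition, and the Bub1 call in 10 in PE and 3 in PBS. Ttk stood at 111, 110 and 111 in PE knockdown libraries, against 201, 163 and 188 in PE control libraries. The 3 knockdown libraries were close to each other and lay far below every control library, and the log2 change was -0.72 ± 0.16 (limma, adjusted p = 0.0048). In PBS, Ttk stood at 158, 103 and 146 with the knockdown, against 192, 205 and 228 in control, a change of -0.64 ± 0.16 (limma, adjusted p = 0.026). Cdc20, which activates the anaphase-promoting complex, fell by 0.44 ± 0.13 in PE and had a value of -0.17 ± 0.13 in PBS. It overlaps the higher gene Elovl1 on the other strand, and no source used here says whether counting used strand, so reads of the pair may not have been told apart. The same holds for Kif20a with Cdc23, Tacc3 with Tmem129 and Kif4 with Pdzd11. Ube2c was called in neither condition (-0.35 ± 0.13 in PE and -0.35 ± 0.13 in PBS).

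Of the 7 centromere, kinetochore and passenger genes, 2 fell in PE and 4 in PBS. Cenpe, the kinetochore kinesin that carries chromosomes to the spindle equator, averaged 365 ± 43.6 in PE knockdown libraries and 603 ± 83.9 in PE control libraries (SD, n = 3 each). In PBS it averaged 363 ± 81.6 with the knockdown and 570 ± 53.8 in control. Its log2 changes were -0.72 ± 0.15 and -0.67 ± 0.15, and Cenpf, a large protein of the outer kinetochore, changed by -0.51 ± 0.12 and -0.59 ± 0.12, in PE and PBS in that order. Nuf2, of the complex that holds microtubule ends, and Knstrn, a kinetochore and spindle protein gene, were called in PBS (-0.72 ± 0.17 and -0.64 ± 0.14) and not in PE. Ndc80, the partner of Nuf2, had a value of -0.60 ± 0.18 in PBS with an adjusted p of 0.061 by limma. Incenp and Birc5 of the passenger complex were not called.

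Of the 6 kinesin motors, 3 fell in PE and 5 in PBS. Kif20b, a kinesin of the midbody, had the largest log2 change of the 44 genes in PBS. It stood at 280, 182 and 267 in PBS knockdown libraries, against 389, 512 and 429 in PBS control libraries, and at 324, 252 and 249 in PE knockdown libraries, against 468, 355 and 474 in PE control libraries. Its groups did not overlap in PBS or in PE. The fall was 1.84-fold in PBS (limma, log2 change -0.88 ± 0.17, adjusted p = 0.0036) and 0.65 ± 0.17 on the log2 scale in PE (adjusted p = 0.015). Kif4, a kinesin of chromosome arms and the central spindle, fell in both conditions. Kif11, which pushes the spindle poles apart, Kif23 of the central spindle and Kif2c, which shortens microtubules, fell in PBS by 0.49 to 0.62 and had values of -0.35 to -0.42 in PE without a call. Kif20a, a kinesin of the central spindle, was called in PE and not in PBS.

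All 8 spindle assembly genes fell in PBS, and 4 of them fell in PE. Tpx2, which activates Aurora A on the spindle, averaged 753 ± 53.3 in PE knockdown libraries and 1076 ± 150 in PE control libraries, and 739 ± 66.6 in PBS knockdown libraries and 1135 ± 71.0 in PBS control libraries (SD, n = 3 each). Prc1, which bundles microtubules of the spindle midzone, and Nusap1 and Tacc3, which stabilise spindle microtubules, also fell in both conditions. The Tacc3 call was lost in 9 of 21 alternatives in PE and in 14 in PBS. Aspm, a spindle pole protein gene, averaged 255 ± 41.4 in PBS knockdown libraries and 414 ± 7.92 in PBS control libraries, a log2 change of -0.71 ± 0.14 (limma, adjusted p = 0.0062). In PE it was not called (-0.35 ± 0.14). Ckap2l, Hmmr and Dlgap5, whose products bind spindle microtubules, were likewise lower in PBS (-0.82 ± 0.17, -0.77 ± 0.16 and -0.55 ± 0.14) and not called in PE.

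Of the 4 cytokinesis genes, Anln fell in PE, and Anln, Ect2 and Cep55 fell in PBS. Anln encodes anillin, the scaffold of the contractile ring (GRCm38 chromosome 9, 22332012 to 22389188, minus strand). It stood at 1276, 1218 and 1225 in PE knockdown libraries, against 1752, 1639 and 1900 in PE control libraries. In PBS it stood at 1064, 799 and 990 with the knockdown, against 1411, 1347 and 1498 in control. The 2 groups lay apart in each condition, and the log2 changes were -0.51 ± 0.11 (limma, adjusted p = 0.0032) and -0.59 ± 0.11 (adjusted p = 0.0024). Ect2, the exchange factor that activates RhoA at the furrow, changed by -0.45 ± 0.13 in PBS, a call lost in 15 of 21 alternatives. Cep55, which acts in the final cut between daughter cells, changed by -0.79 ± 0.17 in PBS, with 108 in PBS knockdown 2 and 164 and 175 in the other knockdown libraries. Racgap1, the partner of Kif23 in centralspindlin, was called in neither condition (-0.19 ± 0.10 and -0.21 ± 0.10).

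Both chromosome proteins fell in both conditions. Top2a, the topoisomerase that untangles sister chromatids, stood at 1388, 1463 and 1462 in PE knockdown libraries, against 2271, 1908 and 2164 in PE control libraries. In PBS it stood at 1726, 1226 and 1635 with the knockdown, against 2169, 2390 and 2396 in control. The groups did not overlap, and the changes were -0.55 ± 0.12 in PE (limma, adjusted p = 0.0030) and -0.61 ± 0.12 in PBS (adjusted p = 0.0032). Mki67 stood at 2976, 2103 and 2051 in PE knockdown libraries, against 4006, 2758 and 3294 in PE control libraries. In PBS it stood at 2280, 2161 and 2402 with the knockdown, against 3339, 4311 and 4056 in control. The PE groups overlapped, through PE knockdown 1 and PE control 2, and the PBS groups did not. Mki67 changed by -0.50 ± 0.14 in PE (limma, adjusted p = 0.028) and by -0.77 ± 0.14 in PBS (adjusted p = 0.0033).

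**Figure D4:**
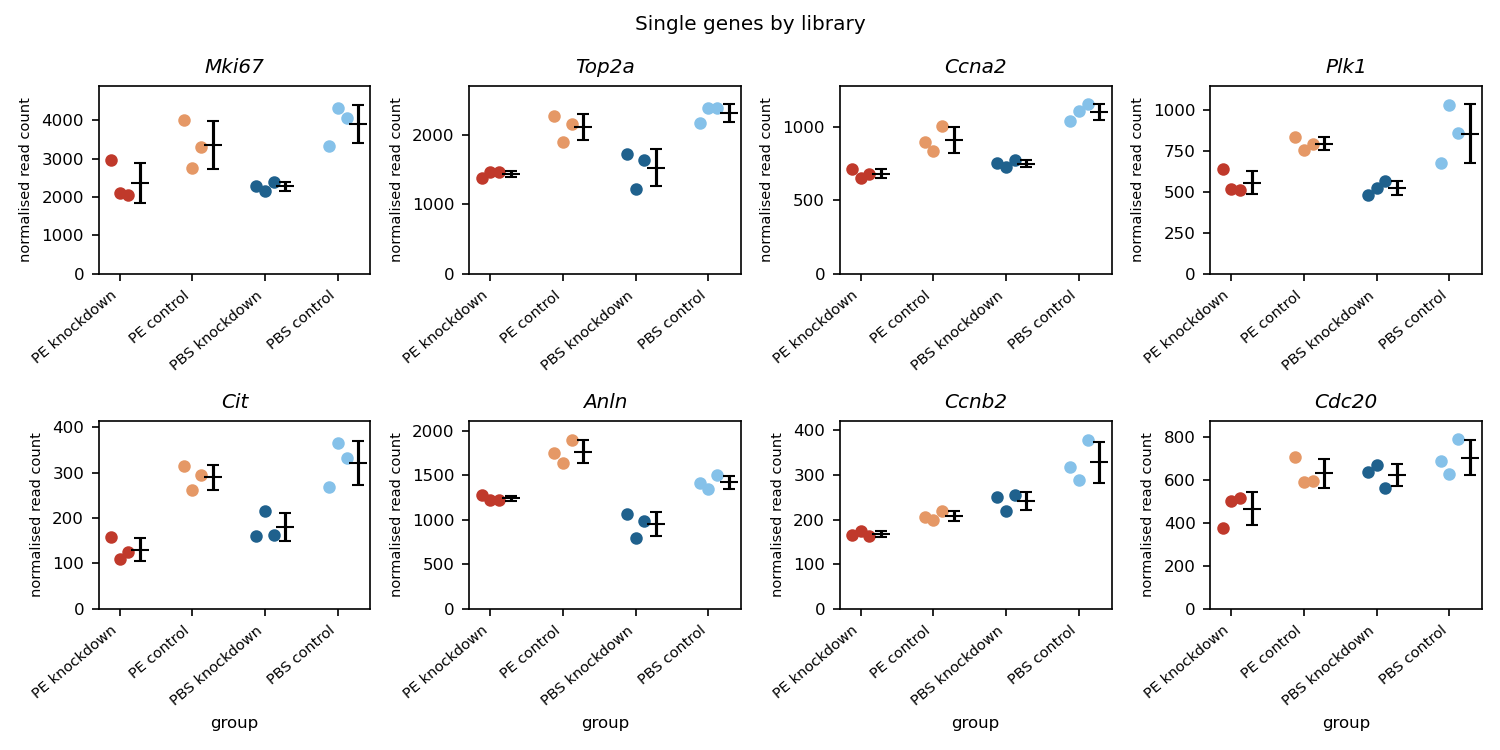
Normalised read count (vertical axis, from 0) of 8 G2 and M phase genes in the 4 groups; points are libraries and black bars give the mean ± SD of 3 libraries. Cit, Ccna2, Plk1, Top2a and Anln had every knockdown library below every control library in PE and in PBS, Anln lay higher in PE than in PBS with either GapmeR, and Ccnb2 lay lower in PE than in PBS.

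PE changed 5 of these genes with each GapmeR, and only Anln and Ccnb2 were called with both. With the control GapmeR, PE raised 1 member, Anln, and lowered 4 (Ccnb2, Nusap1, Pbk and Ccna2), where 12.6% of all genes tested were called higher and 12.8% lower. The median log2 change of the 44 genes was -0.15. With the lincRNA-p21 GapmeR, PE again raised Anln and lowered 4 genes, here Ccnb2, Cdc20, Cit and Melk, where 13.4% of all genes were called higher and 14% lower. The median was -0.03. In both comparisons the called shares of the members lay below those of all genes. The summed normalised read count was 8.09% lower in PE control than in PBS control libraries and 0.852% lower in PE knockdown than in PBS knockdown libraries. As a share of the reads in genes the differences were 17.6% and 10.3%.

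Ccnb2 was the member that PE lowered under every alternative, with either GapmeR. It stood at 165, 174 and 164 in PE knockdown libraries, against 250, 220 and 255 in PBS knockdown libraries (limma, log2 change -0.52 ± 0.13, adjusted p = 0.0044). With the control GapmeR it stood at 205, 200 and 219 in PE libraries, against 317, 289 and 379 in PBS libraries (-0.65 ± 0.13, limma, adjusted p = 7.6e-04). All PE libraries lay below all PBS libraries. For Anln, given above by library, PE values exceeded PBS values in every library with either GapmeR, by 0.39 ± 0.11 with the lincRNA-p21 GapmeR (limma, adjusted p = 0.0090) and 0.31 ± 0.11 with the control GapmeR (adjusted p = 0.037). With the control GapmeR that rise lost its call in 8 of 21 alternatives, and with the lincRNA-p21 GapmeR in 1. Of the genes that PE lowered, Ccna2 lost its call in 10 of 21 with the control GapmeR. Melk and Cit lost theirs in 9 and 8 with the lincRNA-p21 GapmeR. The rise of Anln was called with neither GapmeR when values were rescaled to the same total per library. The same rescaling moved the median log2 change of genes averaging 50 or more to -0.15 in PE against PBS with either GapmeR, and left 16 members called with the control GapmeR and 11 with the lincRNA-p21 GapmeR, none higher.

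The PE counts also turned on single libraries, as did the counts over all genes. With the control GapmeR, 11 members were called without the 3 distant libraries, 10 without PBS knockdown 2, 3 without PE knockdown 2, PE control 3 or PBS control 1, 2 without PE control 1 or PE control 2, and 1 without PBS control 3. Over all 21799 genes, 3803 were called higher and 3618 lower without the 3 distant libraries, and 2197 and 2196 without PBS control 3. The main fit called 2742 and 2801. With the lincRNA-p21 GapmeR, 6 were called without the 3 distant libraries, 8 without PBS knockdown 2 and 3 without PE knockdown 2, PE control 3 or PBS control 3. Over all genes, 3175 were called higher and 3213 lower without the 3 distant libraries, and 2829 and 2901 without PBS knockdown 2. The main fit called 2918 and 3049.

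A further 40 genes of G2 and M phase were listed beside the 44. Of all genes tested, the knockdown called 7.14% lower in PE and 3.21% lower in PBS. In PE, the knockdown lowered 9 of 40 (22.5%) and raised none, with a median of -0.23. The largest changes were in Iqgap3 (-0.58 ± 0.12), a scaffold protein gene of the cell cortex, Smc4 (-0.58 ± 0.13), a condensin subunit, Espl1 (-0.56 ± 0.14), the protease separase, and Cenpa (-0.55 ± 0.14), the centromeric histone. In PBS, 10 of 40 (25.0%) fell and none rose, with a median of -0.36, led by Kif15 (-0.84 ± 0.13), a spindle kinesin, Sgo1 (-0.73 ± 0.21), which protects centromeric cohesin, Shcbp1 (-0.72 ± 0.19), a midbody protein gene, and Kif14 (-0.70 ± 0.16), a kinesin of cytokinesis. Summed over these 40 genes, the normalised read count was 14.3% lower in PE and 17.7% lower in PBS with the knockdown. With PE, 4 rose and 6 fell with the lincRNA-p21 GapmeR, and 3 rose and 9 fell with the control GapmeR. Of all genes tested, PE called 13.4% higher and 14% lower with the lincRNA-p21 GapmeR, and 12.6% and 12.8% with the control GapmeR. The shares of these genes that rose lay below that background. The share that fell was near it with the lincRNA-p21 GapmeR and above it with the control GapmeR (22.5%). With the lincRNA-p21 GapmeR, Trip13, which disassembles checkpoint complexes, rose by 0.75 ± 0.14, and Cdc25b, a CDK1-activating phosphatase, fell by 0.70 ± 0.13. Cdca3 and Ncapd2 fell there by 0.47 ± 0.14 and 0.46 ± 0.10. With the control GapmeR the largest were falls of Cdca3 (0.54 ± 0.14), Cdc25b (0.52 ± 0.13), Spc24 (0.47 ± 0.17) and Kntc1 (0.46 ± 0.12).

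Of 28 S phase genes, listed for contrast, the knockdown lowered 3 in PE and 1 in PBS and raised none. These are 10.7% and 3.57% of the list, near the 7.14% and 3.21% of all genes tested that were called lower. Pola1, the gene of the catalytic subunit of DNA polymerase alpha, was lower in both conditions. It stood at 181, 173 and 192 in PE knockdown libraries, against 403, 393 and 440 in PE control libraries, and at 245, 175 and 248 in PBS knockdown libraries, against 460, 428 and 415 in PBS control libraries. No knockdown library reached a control library, and the changes were -1.17 ± 0.13 (limma, adjusted p = 5.1e-06) and -0.98 ± 0.13 (adjusted p = 1.3e-04). Mcm3 of the replicative helicase (-0.32 ± 0.09) and Uhrf1, which maintains DNA methylation (-0.29 ± 0.09), were the others called in PE. The medians were -0.14 in PE and -0.11 in PBS, and the sums were 7.69% and 7.62% lower. With PE, Tyms and Rrm2, enzymes of nucleotide synthesis, rose and the DNA ligase gene Lig1 fell with either GapmeR, and Mcm4 fell with the control GapmeR.

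**Figure D5:**
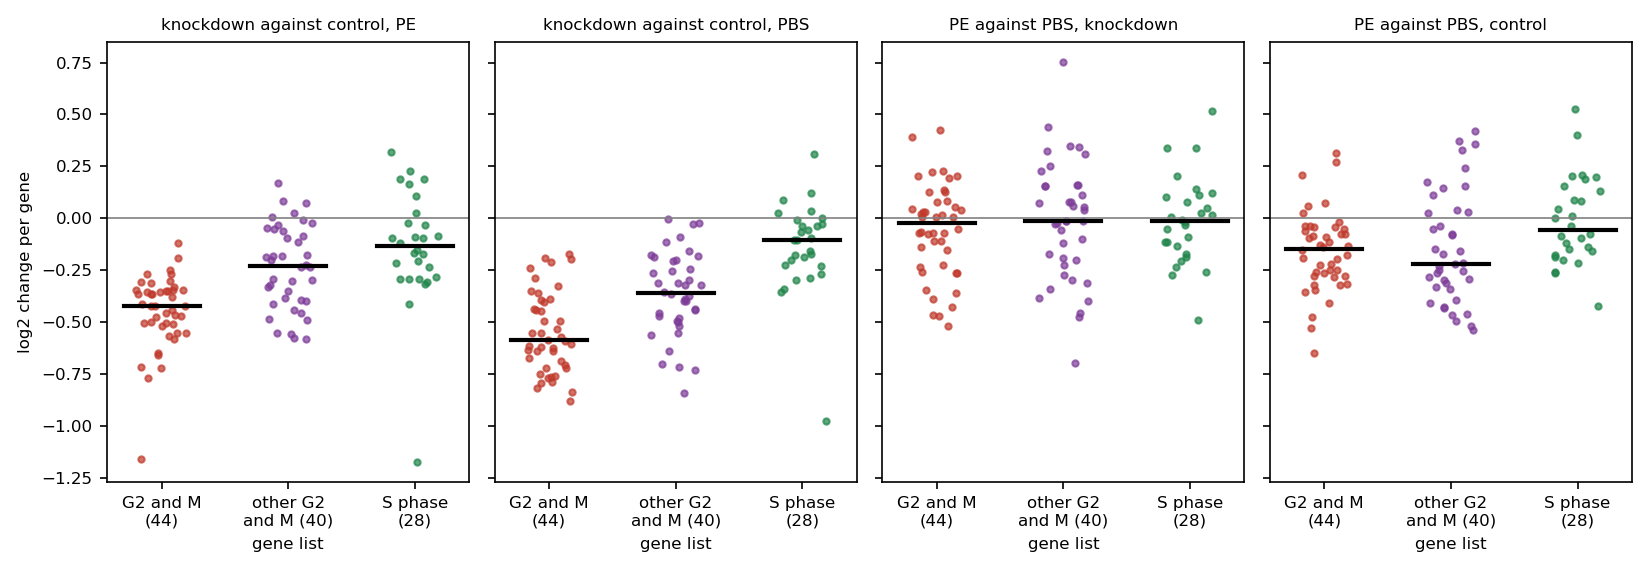
Log2 change per gene (vertical axis) for the 44 G2 and M phase genes, the 40 other G2 and M phase genes and the 28 S phase genes (horizontal axis) in 4 comparisons; points are genes and black lines are medians. With the knockdown the median of the 44 genes was -0.42 in PE and -0.59 in PBS, against -0.14 and -0.11 for the S phase genes, and with PE the median of the 44 genes was -0.03 with the lincRNA-p21 GapmeR and -0.15 with the control GapmeR.

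Among 22 regulators of G2 and M transcription, Foxm1 and Mybl2, the genes of the activators FOXM1 and B-MYB, were called in no comparison. Foxm1 averaged 1003 ± 153 in PE knockdown libraries and 1108 ± 119 in PE control libraries, and 939 ± 206 in PBS knockdown libraries and 1193 ± 96.4 in PBS control libraries (SD, n = 3 each). Its log2 values were -0.15 ± 0.14 (limma, adjusted p = 0.60) and -0.36 ± 0.14 (adjusted p = 0.17). Mybl2 had values of -0.15 ± 0.14 and -0.41 ± 0.14 (limma, adjusted p = 0.59 and 0.11). Cdkn1a, the gene of the CDK inhibitor p21, was not called with the knockdown (-0.07 ± 0.12 in PE and -0.10 ± 0.12 in PBS) and rose with PE by 0.56 ± 0.12 with the lincRNA-p21 GapmeR and 0.53 ± 0.12 with the control GapmeR.

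Tfdp1, which encodes the DP1 partner of E2F factors, fell in both conditions. It stood at 779, 868 and 866 in PE knockdown libraries, against 1522, 1524 and 1428 in PE control libraries, and at 872, 751 and 827 in PBS knockdown libraries, against 1263, 1334 and 1336 in PBS control libraries. The groups lay far apart, with log2 changes of -0.83 ± 0.09 (limma, adjusted p = 4.6e-06) and -0.68 ± 0.09 (adjusted p = 1.4e-04). In PE, 5 regulators fell and 1 rose, including E2f3 (-0.49 ± 0.09), Lin52 of the MuvB core (-0.49 ± 0.15) and, higher, Lin37 of the same core (0.44 ± 0.13), which overlaps the much higher gene Hspb6 on the other strand. In PBS, 2 fell, Tfdp1 and E2f7, a repressor of the E2F family (-0.71 ± 0.16). The shares of regulators called lower were 22.7% in PE and 9.09% in PBS, against 7.14% and 3.21% of all genes tested. The share called higher in PE was 4.55%, against 4.57% of all genes. With PE, Rbl2, which encodes p130 of the DREAM complex, fell by 1.01 ± 0.10 with the lincRNA-p21 GapmeR and 0.79 ± 0.10 with the control GapmeR, and Tfdp2 fell by 0.70 ± 0.11 and 0.67 ± 0.11. Rbl2 overlaps Aktip, a gene of similar level on the other strand. Lin52 fell with PE by 0.63 ± 0.15 with the lincRNA-p21 GapmeR, and E2f2 by 1.20 ± 0.27 with the control GapmeR. No gene of these lists was called in the interaction, where the largest values were Shcbp1 (0.66 ± 0.26) and Sgo2a (0.56 ± 0.29) of the other G2 and M phase genes, E2f2 (0.80 ± 0.38) and E2f8 (0.39 ± 0.23) of the regulators, and Fen1 (-0.32 ± 0.43) and Rfc3 (0.32 ± 0.19) of the S phase genes. Sgo2a and Fen1 overlap higher genes on the other strand.

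Markers of the cell types in the cultures moved as well. Of all genes tested, the knockdown called 7.14% lower in PE, and 3.21% lower and 1.36% higher in PBS. With the knockdown, all 10 cardiomyocyte markers had values below 0 in PE and in PBS, with medians of -0.24 and -0.28, and 1 was called in PE and none in PBS. Their summed value was 718999 to 829391 in PE knockdown libraries, against 885110 to 1183050 in PE control libraries, and 539562 to 582359 in PBS knockdown libraries, against 664632 to 766090 in PBS control libraries. Fibroblast markers summed to 43598 to 47898 in PE knockdown libraries, against 53226 to 58427 in PE control libraries, with 2 of 10 called lower. In PBS they overlapped, at 74665 to 90063 in knockdown libraries and 81056 to 87810 in control libraries, with none called. Smooth muscle and pericyte markers summed to 39136 to 42533 in PE knockdown libraries, against 54284 to 55994 in PE control libraries, with 2 of 8 called lower, and to 20961 to 22779 in PBS knockdown libraries, against 24952 to 28958 in PBS control libraries, with none called. With the knockdown in PE, 2 of 10 endothelial and 1 of 6 epicardial markers were called lower, and in PBS 1 of 10 leukocyte markers was called higher. With PE, 8 of 10 endothelial markers rose with either GapmeR, 7 of 10 leukocyte markers with the lincRNA-p21 GapmeR and 6 with the control GapmeR, and 8 and 7 of 10 fibroblast markers fell. Of all genes tested, 12.6% to 13.4% were called higher and 12.8% to 14% lower with PE. Erythroid markers were near 0 (summed value 4.72 to 56.9, Hbb-bt at 0). The part of these cell types in the changes of the G2 and M phase genes was not tested.

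Members with longer genomic spans had lower log2 values with the knockdown. Spans ran from 4.45 kb for Cdc20 to 164 kb for Cit, with a median of 30.7 kb. Across the 44 genes, which share libraries and are not independent, Spearman's rho between span and log2 change was -0.42 in PE and -0.52 in PBS with the knockdown (-0.38 and -0.49 without Cit). With PE it was 0.14 with the lincRNA-p21 GapmeR and 0.07 with the control GapmeR. Pola1 spans 327 kb, the longest of the S phase genes listed. Whether span bears on the changes was not tested.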

How the data were processed

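Per the labels, polyadenylated RNA was extracted with TRIzol, and BGI made and sequenced 12 paired-end libraries, 3 per group. Per the submitters' processing notes, STAR, SAMtools and featureCounts were used with GRCm38.p6; their versions, the annotation release and the strand setting are not given in the sources used here. A single table was deposited by the authors, whose signal values are reads per gene scaled by a size factor for each library. Multiplying back gave whole reads for 100% of values in every library (tolerance 0.001), and factors ran from 0.921 to 1.11. The table has 0 columns of no sample.

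Gene identifiers were matched without version to GENCODE M21, which gave a symbol to 52083 genes. The 21799 genes averaging 1 or more were fitted on log2(value + 1) with limma 3.58.1, a trended prior and 4 group means over all 12 libraries. The threshold was a two-sided p of 0.05 after Benjamini-Hochberg adjustment over all genes. The 5 comparisons were the GapmeRs within PE and within PBS, PE against PBS with each GapmeR, and the interaction. Data were simulated for the knockdown in PE, with 200 changed genes of moderate or high level among 21799. The test found 63.5% of 1.5-fold and 98% of 2-fold changes, with 8 and 10 calls in unchanged genes. Changes under 1.5-fold are therefore found less often. The real comparison called 997 genes higher and 1556 lower, many more than 200, so these shares may not carry over to it.

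The 44 members and the other lists were chosen with earlier results of these data known. All members were named. Of the other G2 and M phase genes, regulators and S phase genes, up to 4 called genes with the largest change were named per comparison, or 2 where none was called, besides Foxm1, Mybl2, Cdkn1a and Trp53cor1. Lin54 was not analysed here. Alternatives were a pseudocount of 0.1, no filter, a CPM filter, edgeR 4.0.16 and DESeq2 1.42.0 on recovered reads, rescaling to the same total, a fit of the compared groups only, a replicate block, each library left out, and, chosen after seeing the data, a fit without 3 distant libraries. Promoter sequences are from RefSeq (GRCm38.p6). Kif20a, Cdc25c, Dlgap5, Pbk, Tpx2, Ccna2, Incenp and Aurkb were not matched to a promoter window. Another tested gene overlaps 11 members, and 4 of these partners are as high as the member or higher.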

Additional observations from a re-analysis of the deposited data

How the results depend on the processing

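In all 21 alternatives the interaction called 0 members, the knockdown called none higher, and no call changed direction. Knockdown counts changed by over 1.5 times in few settings. Counts over all genes tested moved between settings too, as given above for the knockdown and for PE. In PE, where 22 members were called, 37 were called without the 3 distant libraries, and leaving out 1 library gave 10 to 29. In PBS, where 31 were called, the fit of the compared groups alone gave 13, and leaving out 1 library gave 17 to 32. Rescaling to the same total gave 15 in PE and 24 in PBS, all lower, while the lower share of all called genes was 42.3% in PE (60.9% as deposited) and 51.0% in PBS (70.2% as deposited).

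For PE with the control GapmeR, where 5 members were called, no filter gave 3, rescaling 16, the compared groups alone 10, the fit without 3 distant libraries 11, and leaving out 1 library 1 to 10. With the lincRNA-p21 GapmeR, where 5 were also called, no filter gave 3, rescaling 11, the compared groups alone 2, and leaving out 1 library 3 to 8. Under rescaling, the lower share of all called genes was 71.8% with the control GapmeR (50.5% as deposited) and 69.3% with the lincRNA-p21 GapmeR (51.1% as deposited). The cause of these shifts was not tested, except that smaller fits hold fewer libraries.

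With the replicate block, 19 members were called for the knockdown in PE, 29 in PBS, 4 for PE with either GapmeR and 0 for the interaction. Residuals of same-numbered libraries correlated between -0.435 and 0.409, so the numbers were not treated as pairs. Not every uncalled member lies within its error: in PE, 36 members had an unadjusted p under 0.05 by limma and 22 were called, and in PBS 38 and 31.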
